A study of Homo sapiens with 8 samples.

Results

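Chemokines, inflammatory cytokines and their feedback were followed over 10 genes in A375 cells, a human melanoma line, over an experiment on the HSP90 inhibitor NVP-HSP990 and knockdown of HSF1, the transcription factor of the heat shock response. The members were CXCL8, CXCL1, CXCL2, CXCL3, CCL2, IL6, IL1B, IL24, LIF and TNFAIP3, and they were found by taking every probe set of the HG-U133 Plus2 array that is annotated to 1 of these symbols and to no other gene. This gave 15 probe sets of 10 genes, among 41091 single-symbol probe sets of 19775 genes. RNA was measured on 8 arrays, 2 in each of 4 groups. The first group, called shHSF1+Dox+HSP990 below, was A375 cells with an HSF1 hairpin (shHSF1), given Doxycycline for 3 days at 100 ng/mL to induce the hairpin and then 100 nM NVP-HSP990 for 3 h. The second, shHSF1+HSP990, was the same shHSF1 cells without Doxycycline, given 100 nM NVP-HSP990 for 3 h. The third, shNTC+Dox+DMSO, was A375 cells with a non-targeting hairpin (shNTC), given Doxycycline for 3 days and then 0.1% DMSO for 3 h. The fourth, shNTC+DMSO, was shNTC cells without Doxycycline, given 0.1% DMSO for 3 h. Groups follow the sample titles, since the growth protocol in the labels names Doxycycline for all lines alike and the description fields name other experiments. The HSF1 hairpin is 1 inducible construct, called sh1999 in the titles. All cells with NVP-HSP990 carried the HSF1 hairpin and all cells with DMSO the non-targeting hairpin, so that the inhibitor and the hairpin line cannot be told apart. Doxycycline and the knockdown it induces cannot be told apart within shHSF1 cells either, and shNTC cells with and without Doxycycline show the agent without the HSF1 hairpin. Whether both arrays of a group stem from cultures of their own is not given in the labels, and p-values therefore measure the spread between arrays alone, which may be technical.

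The level of a probe set is its MAS5 signal, a linear intensity that the authors scaled to a trimmed mean of 150 on each array. The median signal of an array was 10.6 to 14.2. Changes are differences of log2(signal + 16) from limma, fitted with 1 probe set a gene over the 12672 genes that reached the array median in 2 or more arrays. Genes with an adjusted p under 0.05 are described as called. Adding 16 shrinks the changes of dim genes, and with 2 arrays a group an exact permutation test of a single gene could not go below p = 0.333. The targeted gene followed its labels. HSF1 had signals of 5.5 and 7.3 in shHSF1+Dox+HSP990 cells, against 99 and 42.5 in shHSF1+HSP990 cells, and it fell with the knockdown (log2 change -1.87, adjusted p = 0.00754, limma). The signals with the knockdown lie under the medians of their arrays, so that the size of this change depends on the value added. Of 10 heat shock genes taken as a check of the treatment, HSPA6 and BAG3 among them, 9 were higher in shHSF1+HSP990 than in shNTC+DMSO cells and 10 lower with the knockdown (limma). Of the melanoma lineage markers, MITF, SOX10, S100B, MIA and CSPG4 were above the median in all 8 arrays, and PMEL, MLANA, TYR, TYRP1 and GPM6B below it in all 8. The leukocyte markers PTPRC and CD14 were below the median in all 8 arrays too, with 6 other leukocyte markers of the 10 measured, while LYZ and FCER1G were tested and not called. For ACTB, the 3-prime probe set divided by the 5-prime one, a ratio that is high where RNA is degraded, gave 46.8 in the second shNTC+Dox+DMSO array, and the other 7 arrays had 4.73 to 18.9.

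Chemokines of the CXC class with an ELR motif, CXCL8 and CXCL1 to CXCL3 among them, draw neutrophils through the receptor CXCR2, and melanoma cells are known to secrete them and to grow in response to them. IL6 and LIF signal through receptors that share gp130, IL1B starts an inflammatory cascade, and many of these genes are switched on by NF-kB after the IKK complex, which relies on HSP90, has released it from its inhibitors. TNFAIP3 encodes a ubiquitin-editing enzyme that is itself an NF-kB target and that shuts the pathway down. Promoter sequences are shown for members whose results are set against each other below. They are the 140 bases before the start of CXCL8, CXCL1, CXCL2, CXCL3 and IL6 and a stretch of the TNFAIP3 promoter, each 5′ to 3′ on the gene's strand, from RefSeq on GRCh38.p14. Capitals mark matches to the kappa-B-like letters GGNNTTTCC on either strand and, at the left of the CXCL8 promoter, to the AP-1 letters TGANTCA.
CXCL8: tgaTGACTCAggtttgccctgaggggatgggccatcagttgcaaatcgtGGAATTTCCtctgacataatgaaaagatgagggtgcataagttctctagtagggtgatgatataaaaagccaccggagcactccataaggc
CXCL1: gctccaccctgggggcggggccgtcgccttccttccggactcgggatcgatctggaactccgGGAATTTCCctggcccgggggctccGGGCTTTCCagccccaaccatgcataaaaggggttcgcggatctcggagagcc
CXCL2: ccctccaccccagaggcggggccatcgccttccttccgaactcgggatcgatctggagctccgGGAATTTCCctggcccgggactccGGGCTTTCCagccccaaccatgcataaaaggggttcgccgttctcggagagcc
CXCL3: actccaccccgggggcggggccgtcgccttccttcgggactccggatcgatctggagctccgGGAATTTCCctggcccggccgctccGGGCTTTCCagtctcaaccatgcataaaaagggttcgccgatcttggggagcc
IL6: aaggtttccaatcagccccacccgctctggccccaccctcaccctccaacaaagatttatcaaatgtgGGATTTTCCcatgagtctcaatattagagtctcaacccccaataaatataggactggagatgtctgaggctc
TNFAIP3: tttGGAAAGTCCcgtGGAAATCCCcgg
The CXCL8 stretch lies at chr4:73740429-73740568 on the plus strand and that of CXCL1 at chr4:73869253-73869392 on the plus strand. CXCL2 lies at chr4:74099196-74099335 and CXCL3 at chr4:74038690-74038829, both on the minus strand. IL6 lies at chr7:22727060-22727199 and TNFAIP3 at chr6:137867189-137867215, both on the plus strand.

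Promoters of 250 bases before to 50 after the start were matched for 8 of the 10 members, all but CCL2 and LIF. The kappa-B-like letters were present in 6 of these 8, in CXCL8, CXCL1, CXCL2, CXCL3, IL6 and TNFAIP3, and in 6.26% of all 35116 promoters searched. The AP-1 letters were present in CXCL8 alone of the 8, and in 7.71% of all promoters. The letters GAANNTTCNNGAA, 3 inverted units of a heat shock element, were in 0 of the 8 and in 0.49% of all promoters. The 140 bases shown were aligned in pairs from end to end, with gaps allowed. Identical bases were 92.1% of the 140 for CXCL1 and CXCL2, 90.7% for CXCL1 and CXCL3, and 88.6% for CXCL2 and CXCL3. All 3 held both kappa-B-like matches at nearly the same distance from the start. CXCL8 had 47.9% to 49.3% identical bases in its alignments with them. The motifs were chosen with these promoters in view, and a match is a description of letters, not of a bound site.

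Of the 15 probe sets, 11 reached the median of each of the 8 arrays, and they covered 9 of the 10 genes. A second CXCL8 probe set, 211506_s_at, was so in 7 arrays. CCL2 and 2 further probe sets of CXCL2 (1569203_at and 230101_at, signals of 0.2 to 4) were below the median in all 8 arrays and were not tested. CCL2, the monocyte-attracting chemokine, had signals of 2.4 and 10.5 in shHSF1+Dox+HSP990 cells, 5.2 and 5.7 in shHSF1+HSP990 cells, 4.5 and 1.5 in shNTC+Dox+DMSO cells, and 8.4 and 8.7 in shNTC+DMSO cells. All of these values lie under the arrays' medians, so no level was read from them. In bulk RNA, fewer cells that make a transcript and less of it per cell cannot be told apart.

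**Figure D1:**
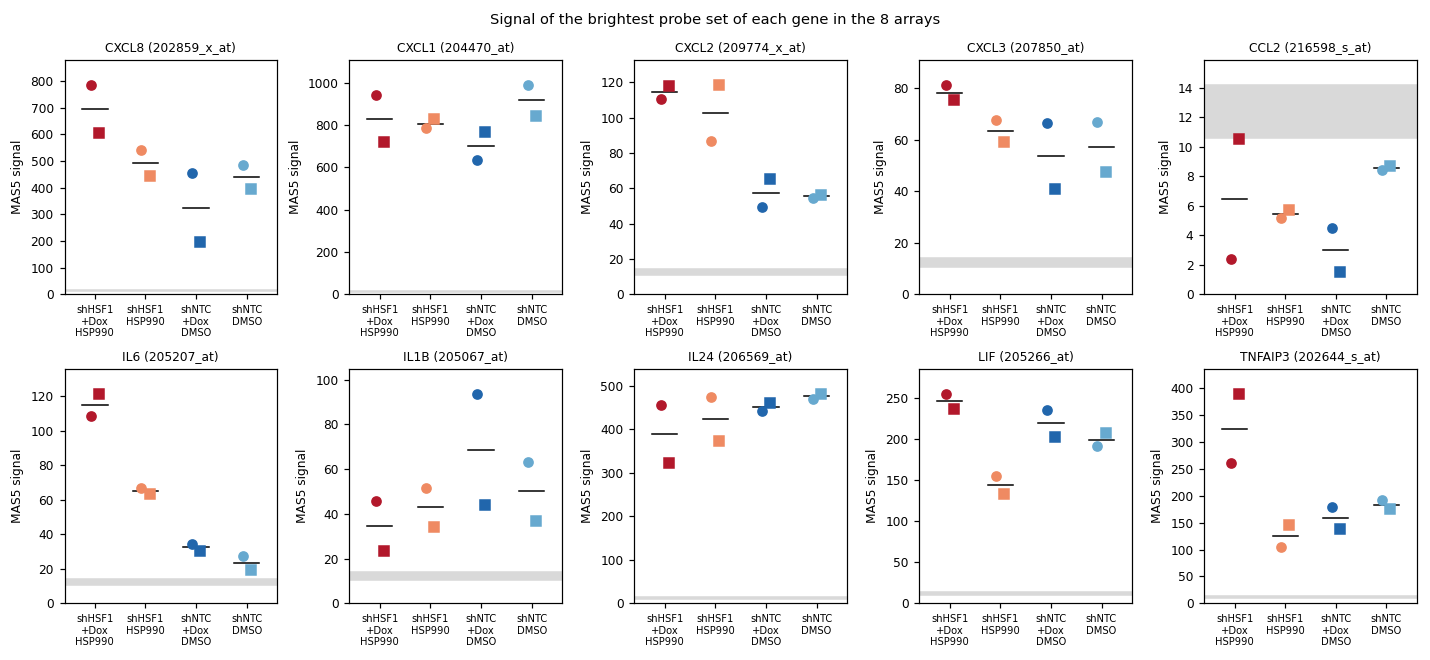
MAS5 signal (linear axis, from 0) of the brightest probe set of each gene in the 8 arrays, by group. Circles are the first and squares the second array of a group, horizontal lines the group means, and the grey band spans the arrays' median signals (10.6 to 14.2). IL6 steps down from left to right, LIF and TNFAIP3 have their lowest means in shHSF1+HSP990 cells, and CCL2 stays under the grey band in every array.

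The knockdown compares shHSF1 cells with and without Doxycycline, both with NVP-HSP990. TNFAIP3 was higher with the knockdown, and it was the 1 member called of the 9 tested, with 0 lower (limma, adjusted p under 0.05). Of all 12672 genes 2.84% were called, 0.994% as higher. At an unadjusted p under 0.05 there were 3 members (TNFAIP3, LIF and IL6), where 15.3% of all genes were. A total of 7 members had changes above 0 and 2 below 0, with a median log2 change of 0.25, against 0.0015 over all genes. The arrays of the groups did not overlap for 5 members, all of them higher with the knockdown (CXCL8, CXCL3, IL6, LIF and TNFAIP3), where 21.5% of all genes were higher without overlap and 21.8% lower.

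TNFAIP3 had signals of 260.3 and 389.2 in shHSF1+Dox+HSP990 cells (probe set 202644_s_at), against 104.8 and 145.7 in shHSF1+HSP990 cells. In shNTC cells it had 178.9 and 137.9 with Doxycycline and DMSO, and 192.3 and 174.6 with DMSO. Both arrays with the knockdown lay above all 6 others. Of the arrays with NVP-HSP990 alone, one was the lowest of the 8 and the other lay among the DMSO arrays. The log2 change with the knockdown was 1.26 (standard error 0.24, adjusted p = 0.0209, limma, 2 arrays against 2). A second probe set, 202643_s_at, had 119.1 and 153.2 with the knockdown against 56 and 63.9 without it. The 56 and 63.9 were its lowest signals of the 8 arrays, with 67 to 94.4 in the DMSO arrays. Tested singly among 24631 probe sets, of which 1.88% were called, it changed by 1.00 (standard error 0.22, adjusted p = 0.0514, limma) and the brighter one had an adjusted p of 0.0272. The TNFAIP3 call was lost without the second shHSF1+Dox+HSP990 array (change of 0.98) and without the first shHSF1+HSP990 array (change of 1.05). Each of these fits leaves 1 array in a group, and fewer of all genes were called in them too. The call was also lost when only the 4 arrays of the comparison were fitted (adjusted p = 0.104, limma). There 95 of all genes were called, against 360 with all 8 arrays.

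LIF, a gp130 cytokine named for its effect on leukaemia cells, had the next largest change of the members with the knockdown. Its signals were 255.3 and 237 in shHSF1+Dox+HSP990 cells, against 154.7 and 133 in shHSF1+HSP990 cells. In shNTC cells they were 235.8 and 203 with Doxycycline and DMSO, and 191.3 and 207.2 with DMSO. The 2 arrays with NVP-HSP990 alone were the lowest of the 8, and the other 6 arrays lay between 191.3 and 255.3. The log2 change with the knockdown was 0.72 (standard error 0.18, adjusted p = 0.0624, limma), which did not pass the threshold. It passed with median centring (adjusted p = 0.0484, limma) and when probe sets of each gene were averaged (adjusted p = 0.0327). With the replicate number as a block it passed too (adjusted p = 0.0279, limma), where 752 of all genes were called against 360. LIF has 1 probe set, so that averaging left its own values as they were and its p-value moved only through the other genes.

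IL6, the main acute-phase cytokine, had signals of 108.5 and 121.3 in shHSF1+Dox+HSP990 cells, against 67 and 63.5 in shHSF1+HSP990 cells. In shNTC cells they were 34.6 and 30.5 with Doxycycline and DMSO, and 27.2 and 19.1 with DMSO. The 4 groups formed a ladder with no overlap between any of them, and the span of 1.97 on the log2 scale between the lowest and highest array was the widest of the members' tested probe sets. The step with the knockdown was 0.69 (standard error 0.20, adjusted p = 0.103, limma) and did not pass. It passed with 64 added before the log (adjusted p = 0.0483, limma) and when probe sets of each gene were averaged (adjusted p = 0.0455). IL6 has 1 probe set, so that averaging left its own values as they were and its p-value moved only through the other genes. The step of IL6 between the shNTC groups is given with Doxycycline below.

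Among the CXC chemokines no change with the knockdown passed the test. CXCL8, a classic neutrophil attractant, had 786.1 and 607.2 in shHSF1+Dox+HSP990 cells, against 542.9 and 444.7 in shHSF1+HSP990 cells. Its arrays did not overlap, but the change of 0.48 had a 95% interval of -0.21 to 1.17 (adjusted p = 0.529, limma). The dim second probe set had 23.1 and 39.4 against 16.8 and 21.4, a change of 0.41. CXCL3, a close paralog of CXCL1 and CXCL2, had 81.4 and 75.4 against 67.9 and 59.2, a change of 0.25 (adjusted p = 0.708). CXCL2 changed by 0.15 (interval -0.32 to 0.63) and CXCL1 by 0.03 (interval -0.36 to 0.42). For these 2 genes the arrays with and without the knockdown overlapped.

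IL1B and IL24 did not share that direction. IL1B, which is made as an inactive precursor, had 45.6 and 23.4 in shHSF1+Dox+HSP990 cells, against 51.7 and 34 in shHSF1+HSP990 cells. IL24, an IL-10 family cytokine found first in differentiating melanoma cells, had 455.1 and 323.1 against 473.8 and 373.4. The groups overlapped for both, with changes of -0.24 for IL1B (adjusted p = 0.828) and -0.13 for IL24 (adjusted p = 0.837, limma).

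**Figure D2:**
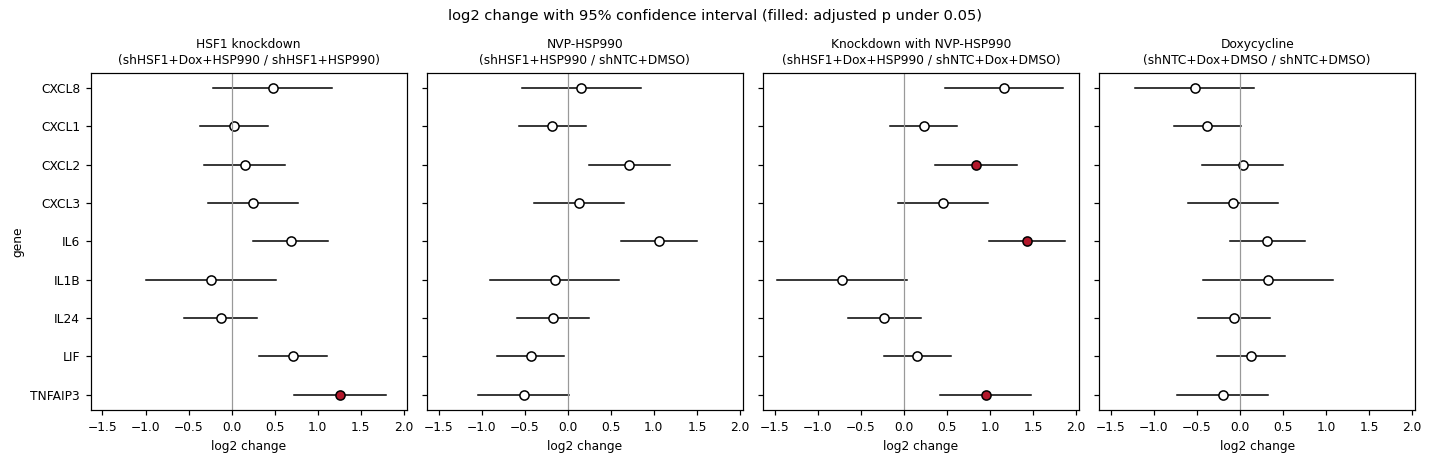
log2 change of the 9 tested members with its 95% confidence interval (horizontal axis, log2 units) in 4 comparisons, each panel naming the groups compared. Filled points were called at an adjusted p under 0.05. These are TNFAIP3 with the knockdown, and CXCL2, IL6 and TNFAIP3 with the knockdown and NVP-HSP990 together.

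NVP-HSP990 without the knockdown is compared as shHSF1+HSP990 cells against shNTC+DMSO cells, whose hairpins are different ones. By limma 0 of the 9 members were called, where 0.221% of all genes were called. At an unadjusted p under 0.05 there were 3, where 4.96% of all genes were. The methods' t-test called 0 of all 12672 genes, so that its 0 members say nothing about them. IL6 had 67 and 63.5 with NVP-HSP990, against 27.2 and 19.1 with DMSO. The change of 1.06 (standard error 0.20, adjusted p = 0.0964, limma) was the largest of the members. It was called without the trend in the variances (adjusted p = 0.0486) and when probe sets of each gene were averaged (adjusted p = 0.0263). IL6 has 1 probe set, so that averaging left its change at 1.06, and its standard error became 0.14 through the other genes. CXCL2, a chemokine released early in inflammation, had 86.5 and 118.5 with NVP-HSP990, against 54.7 and 56.2 with DMSO, with no overlap. Its change was 0.72 (standard error 0.21, adjusted p = 0.537, interval 0.24 to 1.19).

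LIF and TNFAIP3 had lower signals with NVP-HSP990 than with DMSO in both arrays. LIF had 154.7 and 133 against 191.3 and 207.2, a change of -0.43 (standard error 0.18, adjusted p = 0.936, limma). TNFAIP3 had 104.8 and 145.7 against 192.3 and 174.6, a change of -0.51 (standard error 0.24, adjusted p = 1.00). CXCL1 also had no overlap, with 785.8 and 829.4 against 990.6 and 844.9, and its change was -0.18. In all, the arrays did not overlap for 2 members that were higher and 3 that were lower with NVP-HSP990, where 17.6% of all genes were higher and 15.6% lower without overlap. The changes of CXCL8 (0.16), CXCL3 (0.13), IL1B (-0.15) and IL24 (-0.17) lay within 1 standard error of 0, and their arrays overlapped.

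CXCL1, CXCL2 and CXCL3 can be read against the sequences printed above. Their promoters share both kappa-B-like matches. The signals of these genes over the 8 arrays are given as a description, and their relation to the promoters was not tested. CXCL2 had 110.7 and 118.1 in shHSF1+Dox+HSP990 cells and 86.5 and 118.5 in shHSF1+HSP990 cells, above all 4 DMSO arrays, which had 49.3 to 65.4. CXCL1, known as the melanoma growth-stimulating chemokine, had 636.7 to 990.6 over the 8 arrays, and its highest array was one with DMSO alone. CXCL3 had 41.1 to 81.4, with the shHSF1 and shNTC arrays overlapping where Doxycycline was left out. Over the 8 arrays the log2 signals of CXCL2 correlated at r = 0.12 with CXCL1, 0.46 with CXCL3 and 0.89 with IL6, and those of CXCL3 at r = 0.93 with CXCL8. These correlations describe 8 arrays that share 4 treatments, and a difference in change between genes was not tested. CXCL3 and CXCL8 both had their lowest signal (41.1 and 196.2) in the second shNTC+Dox+DMSO array, that with the ACTB ratio of 46.8. In each group the first array was the higher for both genes. The part of RNA quality or array order in their correlation was not tested. The CXCL2 probe set 209774_x_at carries the suffix for probes that may match other transcripts, and how far it reads CXCL1 or CXCL3 RNA was not tested.

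shHSF1+Dox+HSP990 cells were next compared with shNTC+Dox+DMSO cells, both with Doxycycline, which joins the knockdown, the inhibitor and the hairpin line. CXCL2, IL6 and TNFAIP3 rose, and 0 members fell, among 9 tested (limma), where 5.83% of all genes were called and 2.84% as higher. At an unadjusted p under 0.05 there were 4, with CXCL8, where 19.5% of all genes were. The arrays did not overlap for 6 members, all higher (CXCL8, CXCL2, CXCL3, IL6, LIF and TNFAIP3), where 23.7% of all genes were higher and 20.9% lower without overlap. The median change of the members was 0.46, against 0.014 over all genes. This comparison shares the shHSF1 arrays with Doxycycline and NVP-HSP990 with the knockdown comparison, so that both rest on the same 2 arrays on one side.

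IL6 had 108.5 and 121.3 in shHSF1+Dox+HSP990 cells, against 34.6 and 30.5 in shNTC+Dox+DMSO cells. Its change of 1.43 (standard error 0.20, adjusted p = 0.00272, limma) was called with each of the 8 arrays left out in turn (1.36 to 1.50, adjusted p at most 0.0277). TNFAIP3 had 260.3 and 389.2 against 178.9 and 137.9, a change of 0.95 (standard error 0.24, adjusted p = 0.0454). With an array left out, the TNFAIP3 call held in 3 of 8 fits, and without the second shHSF1+Dox+HSP990 array its change was 0.67 (adjusted p = 0.281). CXCL2 had 110.7 and 118.1 against 49.3 and 65.4, a change of 0.84 (standard error 0.21, adjusted p = 0.0481), called in 2 of 8 such fits. Its lowest value was 0.68 without the first shNTC+Dox+DMSO array (adjusted p = 0.148). For TNFAIP3 the second probe set had 119.1 and 153.2 against 94.4 and 67.2, a change of 0.66 (adjusted p = 0.136, probe sets tested singly, of which 3.98% were called).

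CXCL8 depended on 1 array here. It had 786.1 and 607.2 in shHSF1+Dox+HSP990 cells, against 453.4 and 196.2 in shNTC+Dox+DMSO cells, and the 196.2 came from the array with the ACTB ratio of 46.8. Its change was 1.16 (standard error 0.31, adjusted p = 0.0572, limma). Without that array it was 0.59 (adjusted p = 0.239), and without the other shNTC array with Doxycycline it was 1.74 (adjusted p = 0.0108). With the ACTB ratio as a covariate the CXCL2 and TNFAIP3 calls were also lost (adjusted p = 0.0666 and 0.0784), and IL6 stayed called. The part of RNA quality in these values was otherwise not tested. The second CXCL8 probe set had 23.1 and 39.4 against 28.4 and 9.6, which overlapped. LIF changed by 0.16, with 255.3 and 237 against 235.8 and 203, and IL1B by -0.72 (adjusted p = 0.283), with 45.6 and 23.4 against 93.6 and 43.8.

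**Figure D3:**
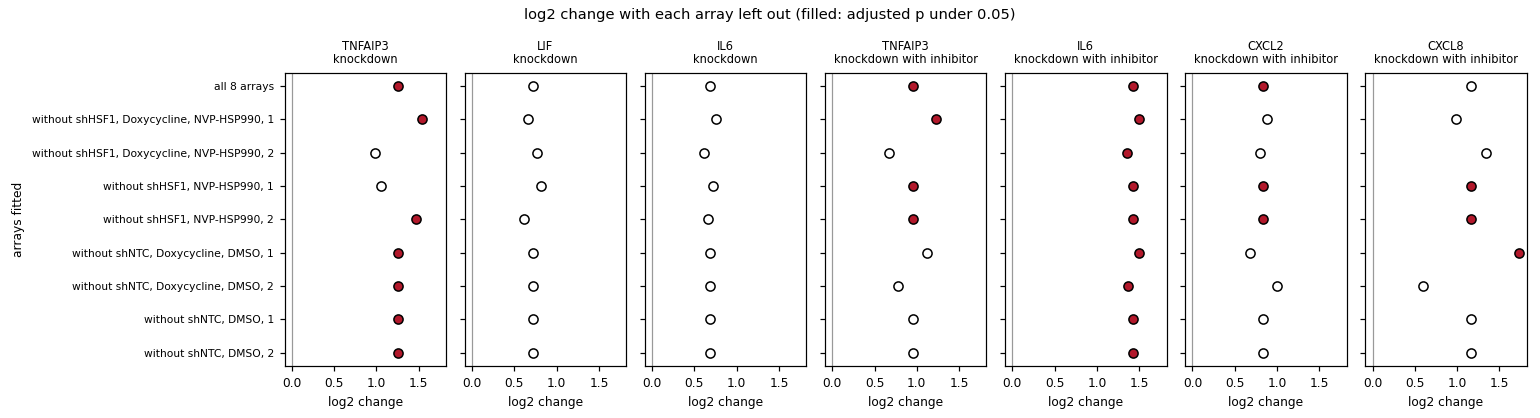
log2 change (horizontal axis) of members in the knockdown comparison (left 3 panels) and in shHSF1+Dox+HSP990 cells against shNTC+Dox+DMSO cells (right 4 panels), with all 8 arrays and with each array left out. Filled points had an adjusted p under 0.05. IL6 in the second comparison is filled in every row, while CXCL8 runs between 0.59 and 1.74.

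Doxycycline without the HSF1 hairpin is compared as shNTC+Dox+DMSO cells against shNTC+DMSO cells. Of the 9 members 0 were called, with 0 at an unadjusted p under 0.05 and 0 by the methods' t-test. Over all genes limma and the methods' t-test also called 0 (0%), with 2.41% at an unadjusted p under 0.05 by limma. IL6 had 34.6 and 30.5 with Doxycycline against 27.2 and 19.1 without it, a change of 0.32 with an interval of -0.12 to 0.75. The arrays did not overlap for IL6, which was higher, nor for CXCL1 and IL24, which were lower, where 11.8% of all genes were higher and 16.7% lower without overlap. CXCL1 had 636.7 and 767.6 against 990.6 and 844.9 (-0.38, interval -0.77 to 0.01). IL24 had 441.9 and 461.5 against 470.2 and 481.2 (-0.07). CXCL8 had 453.4 and 196.2 against 487.1 and 395.4, a change of -0.53 that was 0.05 without the array with 196.2.

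The interaction, the step with Doxycycline between both shHSF1 groups minus that between both shNTC groups, tests whether the 2 steps differ. By limma 0 members were called, with 3 at an unadjusted p under 0.05 (TNFAIP3, LIF and CXCL8), where 0.789% of all genes were called and 10.6% had an unadjusted p under 0.05. TNFAIP3 had the largest difference of the members, 1.46 (standard error 0.34, adjusted p = 0.0958, interval 0.71 to 2.21). Its change with Doxycycline in shNTC cells was -0.20. CXCL8 had 1.01 (adjusted p = 0.453), which was 0.43 without the second shNTC+Dox+DMSO array, that with the ACTB ratio of 46.8, and 1.58 without the first. With an array left out, 1 to 3 members had an unadjusted p under 0.05. LIF had 0.59 (adjusted p = 0.430) and IL6 had 0.37 (adjusted p = 0.740, interval -0.25 to 0.99).

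IL1B differed widely between the 2 arrays of each group. Its signals were 45.6 and 23.4 in shHSF1+Dox+HSP990 cells, 51.7 and 34 in shHSF1+HSP990 cells, 93.6 and 43.8 in shNTC+Dox+DMSO cells, and 63.4 and 36.7 in shNTC+DMSO cells. In each group the first array was the higher, as it also was for CXCL8 (202859_x_at) and CXCL3 among the members. Among the first arrays and among the second arrays alike, IL1B was lowest in shHSF1+Dox+HSP990 and highest in shNTC+Dox+DMSO cells. The second probe set, 39402_at, had 45.5 and 20.5, 54.1 and 31.4, 89.5 and 42.1, and 66.7 and 36.6 in the same order of groups, so both probe sets read the same pattern. In the fit without a replicate block IL1B was not called in any of the 5 comparisons (limma). With the block it was called as lower in shHSF1+Dox+HSP990 against shNTC+Dox+DMSO cells (-0.72, adjusted p = 0.0372, limma). In that fit 1237 of all 12672 genes were called.

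**Figure D4:**
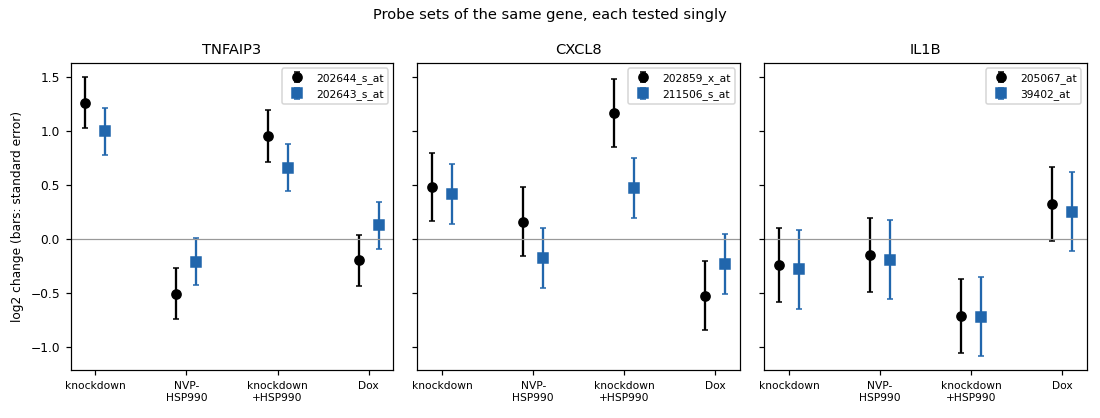
log2 change (vertical axis, bars are standard errors) of the 3 genes with 2 tested probe sets, each probe set tested singly, in 4 comparisons. The IL1B probe sets lie together, those of TNFAIP3 are 1.26 and 1.00 with the knockdown, and those of CXCL8 part most in the comparison of shHSF1+Dox+HSP990 cells against shNTC+Dox+DMSO cells (1.16 and 0.47).

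The genes around the members were counted in lists of known function, to be read against the 2.84% of all genes called and the 15.3% at an unadjusted p under 0.05 with the knockdown. Of 16 other chemokines on the array 3 were tested, and by limma 0 were called in any comparison, with 0 at an unadjusted p under 0.05 with the knockdown. CXCL16, a membrane-bound chemokine, had 311.4 and 190.8 in shHSF1+Dox+HSP990 cells, 199.9 and 131.3 in shHSF1+HSP990 cells, 160 and 82.8 in shNTC+Dox+DMSO cells, and 165.6 and 135.5 in shNTC+DMSO cells. CCL28, a mucosal chemokine, changed by 0.19 with the knockdown (adjusted p = 0.828). Of 10 receptors for the members that were tested, 0 were called in any comparison, with 2 at an unadjusted p under 0.05 with the knockdown. IL6ST, which encodes gp130, changed by -0.49 with the knockdown (adjusted p = 0.249) and OSMR, which pairs with it, by 0.02.

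Of 20 tested genes of NF-kB and IKK signalling, 0 were called in any of the 5 comparisons by limma, with 4 at an unadjusted p under 0.05 with the knockdown. Their median change with the knockdown was -0.12, against 0.0015 over all genes. IRAK1, a kinase below the IL-1 receptor, changed by -0.37 with the knockdown (adjusted p = 0.354) and TAB2, an adaptor of the kinase TAK1, by 0.0043. Of 22 tested NF-kB target and feedback genes other than the members, 0 were called with the knockdown, with 2 at an unadjusted p under 0.05 and a median of -0.03. IER3, an early response gene, had 1496.5 and 1408 in shHSF1+HSP990 cells, against 2847.2 and 2937.9 in shNTC+DMSO cells. It fell by 0.99 in log2 units (standard error 0.16, adjusted p = 0.0492, limma), a call that was lost in 6 of the 8 fits with an array left out. The 1 list with calls in both directions with the knockdown was that of AP-1, C/EBP and early growth response factors, of which 12 were tested.

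EGR1, an early growth response factor, was higher with the knockdown, with 2314 and 2161 in shHSF1+Dox+HSP990 cells, against 1265 and 1171 in shHSF1+HSP990 cells (0.87, standard error 0.14, adjusted p = 0.0117, limma). The EGR1 call was lost without any 1 of these 4 arrays (adjusted p = 0.0541 to 0.0791). FOS, a subunit of AP-1, had 8.1 and 7.5 against 22.5 and 21.9 and was called as lower (adjusted p = 0.0477), a call lost with each of the 8 arrays left out. Its signals with the knockdown lie under the medians of their arrays, and the size of its change depended on the value added before the log (-1.40 with 1 and -0.26 with 64). In shHSF1+Dox+HSP990 cells against shNTC+Dox+DMSO cells, ATF3 (1.53), MAFF (1.41) and EGR1 (1.11) rose and JUNB fell by 1.00 (adjusted p = 0.0485 for JUNB), and these are stress-responsive factors of the same list. With an array left out, ATF3, MAFF and EGR1 were called there in 8 of 8 fits. JUNB was called in 3, and its change was -0.59 without the first (adjusted p = 0.219) and -1.42 without the second shHSF1+Dox+HSP990 array (adjusted p = 0.0139). ATF3 and JUNB were named after their values were seen.

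In that same comparison 5 of 11 other cytokines and growth factors were called, where 5.83% of all genes were. With the knockdown 0 were called, and 6 had an unadjusted p under 0.05, where 15.3% of all genes had. IL11, a gp130 cytokine like IL6 and LIF, had 280.7 and 278.5 in shHSF1+Dox+HSP990 cells, 154.5 and 96.7 in shHSF1+HSP990 cells, 110.6 and 47.2 in shNTC+Dox+DMSO cells, and 110.9 and 63.6 in shNTC+DMSO cells. Its 2 arrays with the knockdown were the highest of the 8, and it rose by 1.72 against shNTC+Dox+DMSO cells (adjusted p = 0.0173, limma). GDF15, a stress cytokine, rose by 2.05 and IL12A, a subunit of IL-12, by 0.94. IL12A did not reach the median of every array. Its change ran from 0.43 to 1.52 over the alternatives other than leaving out an array. IL1A, which acts on the same receptor as IL1B, fell by 0.80 (adjusted p = 0.0447) and CSF1, the macrophage growth factor, fell by 0.76 (adjusted p = 0.0417). With each array left out in turn, GDF15 was called in 8 of 8 fits, IL11 and IL12A in 5 each, and IL1A and CSF1 in 2 each. IL1A changed by -1.28 and CSF1 by -1.26 with 1 added before the log, and by -0.26 and -0.10 when all probe sets of a gene were averaged. These 5 genes were named after their values were seen. VEGFA and IL18, the brightest of the list, were not called (0.29 and -0.40 with the knockdown).

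Lists on the fate of the transcripts and on the response to the cytokines held few calls. Of 8 tested RNA-binding proteins that act on AU-rich elements, through which many cytokine mRNAs are broken down, 0 were called in any comparison by limma, with 0 at an unadjusted p under 0.05 with the knockdown. HNRNPD and KHSRP, the brightest, changed by 0.05 and 0.12 with the knockdown. Of 10 tested gp130 and STAT3 targets and partners 1 was called, in 1 comparison. SOCS2, a feedback inhibitor, rose by 0.76 in shHSF1+Dox+HSP990 cells against shNTC+Dox+DMSO cells (adjusted p = 0.0409), and was named after its values were seen. The SOCS2 call held in 2 of 8 fits with an array left out and was lost with quantile normalization, with no filter and with the ACTB covariate. Of 6 tested genes of IL-1 processing 0 were called by limma, with 2 at an unadjusted p under 0.05 with the knockdown. MCL1, a survival factor and the brightest gp130 target, changed by -0.05 with the knockdown, and CASP4 and CASP8, the brightest caspases of the IL-1 list, by -0.31 and -0.13.

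Markers of other cell types and of the melanoma lineage were set beside these values. All 8 arrays hold RNA of cultured A375 cells, and the sample titles name no other cells. Of 10 fibroblast and endothelial markers 6 were tested, and COL1A2, COL3A1, VWF and CDH5 were below the median in all 8 arrays. The summed signal of the list was 909.6 to 953.4 in shHSF1+Dox+HSP990 cells, 665.4 to 676.6 in shHSF1+HSP990 cells, 536.4 to 645.5 in shNTC+Dox+DMSO cells, and 635.6 to 658.6 in shNTC+DMSO cells. Most of it was LUM, a matrix proteoglycan, which rose with the knockdown (0.71, adjusted p = 0.0385, limma, lost in 6 of 8 fits with an array left out). The summed signal of the leukocyte list was 132.5 to 135.7 in shHSF1+Dox+HSP990 cells, against 202.6 to 212.2 in shHSF1+HSP990 cells, 144.9 to 245.2 in shNTC+Dox+DMSO cells, and 174.2 to 184 in shNTC+DMSO cells. The melanoma lineage list, none of whose 5 tested markers was called, summed to 2837.3 to 3667.4 in shHSF1+Dox+HSP990 cells, 3835.9 to 4120.7 in shHSF1+HSP990 cells, 3493.9 to 4224 in shNTC+Dox+DMSO cells, and 3702.2 to 4096.9 in shNTC+DMSO cells. At an unadjusted p under 0.05 there were 3 of these 5 markers in shHSF1+Dox+HSP990 against shNTC+Dox+DMSO cells (limma), where 19.5% of all genes were. Their median change was -0.65, against 0.014 over all genes. The part of these lists in the members' values was not tested.

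The genes most like IL6, the member with the widest range, and CXCL8 were found by the correlation of log2 signals over the 8 arrays, as a description. For IL6 they were SPRING1 (r = 0.988), RAB39B (0.987) and ZNF568 (0.978). RAB39B, a small GTPase, had 301.4 and 351.3 in shHSF1+Dox+HSP990 cells, 176.2 and 198.4 in shHSF1+HSP990 cells, 66 and 53.6 in shNTC+Dox+DMSO cells, and 43.9 and 41.5 in shNTC+DMSO cells, the same ladder as IL6. For CXCL8 they were PBX3 (0.989), SNX25 (0.983) and DHX16 (0.978), and all 3 had their lowest signal in the second shNTC+Dox+DMSO array, as CXCL8 did.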

How the data were processed

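RNA of the 8 arrays was amplified, labelled and hybridized to HG-U133 Plus2 arrays by the authors, and signals were computed with MAS5 per the submitters' processing notes (version not given in the sources used here). The deposited values are linear signal intensities, scaled on each array to a mean of 150 with the top and bottom 2% of probe sets trimmed, and were used without further normalization. The number of arrays limits the precision. Of 54675 probe sets, 41091 had 1 gene symbol in the platform annotation, 1801 several and 11721 none, and 62 were controls. Of the 41091, 41037 were matched by Entrez ID and 0 symbols changed. A gene was read from its probe set of highest average log2 signal. Log2(signal + 16) was fitted with limma 3.58.1 in R 4.3.3, with 1 mean per group, all 8 arrays in the fit and a variance trend (4 residual and 6.36 prior degrees of freedom). P-values were two-sided, with Benjamini-Hochberg adjustment over 12672 genes, or over 24631 probe sets tested singly. The paper's text names no test for the arrays. The Student t-test of its general statistics section was run as an alternative and is called the methods' t-test. Other alternatives were the value added before the log, the filter, normalization between arrays, the probe set rule, the variance trend, a replicate block, the ACTB 3-prime to 5-prime ratio as a covariate, only the arrays of a comparison, a fold of at least 2, and leaving out each array.

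Members, lists and tests were chosen with earlier results of these data known. All 10 members were named, with HSF1 and HSPA6 as checks. For each list the rule named up to 4 genes called in the knockdown, inhibitor or interaction comparison or, with none called, the 2 brightest, and for CXCL8 and IL6 the 3 most correlated genes. IL11, IL12A, GDF15, IL1A, CSF1, ATF3, JUNB and SOCS2 and the markers below the median lie outside it. Steps were tested on simulated data. Plots and promoter searches used Python 3.11.15.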

Additional observations from a re-analysis of the deposited data

Results flagged for a closer look

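The step with Doxycycline between both shHSF1 groups differed from that between both shNTC groups for 3 named genes outside the members, by the interaction term of limma. EGR1 had a difference of 1.28 (standard error 0.20, adjusted p = 0.0199), with 2314 and 2161 in shHSF1+Dox+HSP990 against 1265 and 1171 in shHSF1+HSP990 cells, and 986.3 and 1063 in shNTC+Dox+DMSO against 1315 and 1416 in shNTC+DMSO cells. MAFF, a small MAF factor, had a difference of 1.15 (standard error 0.20, adjusted p = 0.0304). Its signals were 884.9 and 849.4 in shHSF1+Dox+HSP990 against 765.5 and 781.8 in shHSF1+HSP990 cells, and 326.6 and 307.7 in shNTC+Dox+DMSO against 604.6 and 689.4 in shNTC+DMSO cells. HSPA6, an inducible HSP70 gene and a check of the treatment, had a difference of -5.44 (standard error 0.34, adjusted p = 0.000172), with 18.3 and 12.4 in shHSF1+Dox+HSP990 against 1681 and 1329 in shHSF1+HSP990 cells, and 5.1 and 12.7 in shNTC+Dox+DMSO against 8 and 15.5 in shNTC+DMSO cells. The size of the HSPA6 difference depended on the value added before the log (-6.12 with 1 and -4.24 with 64). With each array left out in turn the HSPA6 difference was called in 8 of 8 fits, that of EGR1 in 1 and that of MAFF in 0.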

How the results depend on the processing

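With 2 arrays a group, single arrays and settings moved several calls, and no alternative turned the direction of a called value. The number of all genes called moved with single arrays and settings as well. Leaving out an array of the groups compared lowered the number of all genes called in each comparison that had calls. The methods' t-test called 0 of all 12672 genes in each comparison it was run on, so that its counts say nothing about the members. IL6 and LIF have 1 probe set each, and averaging probe sets left their own values as they were. For NVP-HSP990 the count of members called was 0 in the reported fit and 1 (IL6) when all probe sets of a gene were averaged and without the variance trend. For the knockdown it was 1 (TNFAIP3), and 2 with 64 added before the log (with IL6), 2 with median centring (with LIF), 3 with the mean of all probe sets (with IL6 and LIF), and 0 with only the arrays of the comparison and with the methods' t-test. It was 0 to 1 with an array left out. For shHSF1+Dox+HSP990 cells against shNTC+Dox+DMSO cells it was 3 (CXCL2, IL6 and TNFAIP3), 1 (IL6) with no filter, the mean of all probe sets, the ACTB covariate, a fold of at least 2 and all probe sets tested singly, and 0 with the methods' t-test. It was 1 to 4 with an array left out. Quantile normalization, median centring and only the arrays of the comparison gave 3 with CXCL8 in place of CXCL2. For Doxycycline and the interaction 0 members were called in every alternative run. The replicate number as a block gave 2 members with the knockdown (with LIF), 5 in shHSF1+Dox+HSP990 cells against shNTC+Dox+DMSO cells (with CXCL8 and with IL1B, which changed by -0.72 at an adjusted p of 0.0372), and 0 elsewhere. First arrays of different groups deviated together at r = 0.016 to 0.685 over 12672 genes. The value was 0.685 between both shHSF1 groups, which the knockdown comparison uses, and 0.464 between both shNTC groups, which the Doxycycline comparison uses. The titles mark the second array of each group as "Repeat 1", and the labels name no batch. The block was taken from this mark, and the reported fit leaves it out, so that its p-values ignore any pairing of arrays. Over all genes the knockdown gave 360 calls in the reported fit and 367 with 64 added. It gave 387 with median centring, 314 with the mean of all probe sets, 95 with only its arrays and 752 with the block. In shHSF1+Dox+HSP990 against shNTC+Dox+DMSO cells there were 739 in the reported fit and 828 with quantile normalization. There were 753 with median centring, 648 with only its arrays and 681 with the mean. The ACTB covariate gave 582, a fold of at least 2 gave 356 and the block 1237. For NVP-HSP990 there were 28, and 30 with either setting that called IL6. Of the values of single genes under the alternatives, 1222 kept their side of the threshold, 184 fell below it and 15 passed it.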
